A study of Mus musculus with 10 samples.

Results

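The comparison described here asks what YH29407, an inhibitor of IDO1, adds to an antibody against PD-1 (aPD-1) in MC38 tumors. It holds 5 of the 10 tumors of the series, chosen by their labels: 3 libraries of the YH29407+aPD-1 group (replicates 2, 3 and 4) and 2 with aPD-1 alone (replicates 3 and 4). MC38 is a colon carcinoma line, and it was grown under the skin of the flank of female C57BL/6 mice bought at 6 weeks of age. The YH29407+aPD-1 mice received YH29407 at 100 mg/kg, given B.I.D. (2 doses a day), together with aPD-1 at 10 mg/kg, given B.I.W. (2 doses a week), and the aPD-1 mice received the antibody alone. The other 5 tumors, 3 given YH29407 alone (replicates 1, 3 and 4) and 2 of the control group (replicates 3 and 5), show the same agent in mice without aPD-1 and share the estimate of spread. The tumors are taken to be those collected on day 5 of treatment, and their RNA came from tissue fixed in formalin and embedded in paraffin. Each library is bulk tumor tissue with both tumor and host cells, and the agents were given to the whole animal. The labels do not say whether the replicates are separate animals, so that p-values measure the spread between these samples.

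IDO1 converts tryptophan to kynurenine. In tumors this depletes tryptophan, which starves T cells and can activate the amino acid sensor GCN2 and the transcription factor ATF4, and the kynurenine formed can activate the aryl hydrocarbon receptor (AhR), which favors regulatory T cells. PD-1 is an inhibitory receptor of activated T cells, and an antibody against it releases cells that have already met antigen. Blocking both is meant to leave T cells, and the dendritic cells and MHC molecules that present antigen to them, less restrained. As the libraries come from whole tumor pieces, fewer cells of a type and less RNA per cell cannot be told apart.

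The 5 libraries held 56170804 to 76287659 counts, and levels are given as CPM, read counts scaled to library size after TMM normalization. They also differed in ways that touch most results below. Keratinocyte genes summed to 2140, 618 and 27.2 CPM in combination replicates 2, 3 and 4, against 45.1 and 74.2 CPM in aPD-1 replicates 3 and 4, far apart in 2 of the 3 combination tumors. Of the 28 genes of that list, 18 and 14 were at 0 counts in the aPD-1 libraries. Skeletal muscle genes summed to 1426, 1539 and 987 CPM in the combination libraries, against 723 and 192 CPM in the aPD-1 libraries. Combination replicate 4, the library without much skin, stood apart from all others along principal component 1 (34.4% of the variance). Mitochondrial mRNA made up 2.28% of that library, against 0.413% to 0.56% elsewhere, and pseudogenes 7.09%, against 3.04% to 3.7%. Red cell genes summed to 217, 178 and 355 CPM in the combination libraries, against 147 and 1293 CPM in aPD-1 replicates 3 and 4. The labels call the cells colon, but the 18 markers of colon epithelium summed to only 18.4, 12.9 and 14.8 CPM in the combination libraries, against 11.1 and 12 CPM in the aPD-1 libraries, so that the tumors are called by their line here. The part that skin, muscle, red cells or the condition of replicate 4 had in the differences between genes was not tested. Many of the lists, though not all, are given below also without combination replicate 4, or with it as the only combination library. A fit with 1 library in a group takes its spread from the other groups, so that its counts of nominal genes describe that library and not the treatment.

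**Figure D1:**
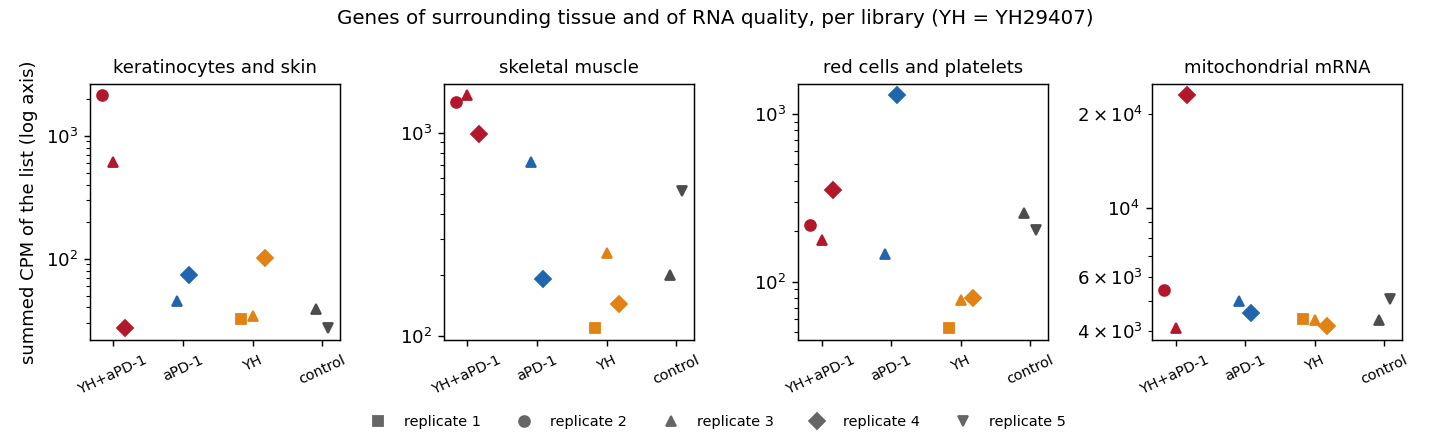
Summed CPM (log axis) of 4 gene lists in each library, with the groups from left to right and a symbol for each replicate. Combination replicates 2 and 3 lie at 2140 and 618 CPM for skin genes, combination replicate 4 at 23040 CPM for mitochondrial mRNA and aPD-1 replicate 4 at 1293 CPM for red cell genes, each far from the other libraries.

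No gene passed the threshold between the groups. At an adjusted p under 0.05, edgeR's quasi-likelihood test with Benjamini-Hochberg adjustment called 0 of 21523 genes (0%), and the smallest adjusted p, that of Plcxd1, was 0.0963. Genes at an unadjusted p under 0.05 are termed nominal here: there were 1743 (8.1%), of which 1239 (5.76%) had higher and 504 (2.34%) lower estimates in the combination group. With a log2 fold change of at least 1 in addition, 1040 genes (4.83%) were higher and 182 (0.846%) lower. Every combination library lay above both aPD-1 libraries in 3198 genes (14.9%) and below both in 3351 (15.6%). The median log2 fold change of all genes tested was 0.10, and 55.5% of them had a positive estimate. Counts of positive and nominal list members below are to be read beside these shares of all genes. DESeq2, run as an alternative, called 265 genes higher and 57 lower on the 10 libraries, and 360 higher and 64 lower on the 5 libraries compared. It used the same counts, so that its calls of genes chosen below by their edgeR p are not separate support. Without combination replicate 4, edgeR called 10 higher and 1 lower. Genes named below had an adjusted p of 0.565 or more from edgeR, except for Plcxd1 and Ffar2.

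IDO1, the target of YH29407, and its relative IDO2 were at low mRNA levels in both groups. Ido1, which makes the first step from tryptophan, had 1.17, 0.814 and 0.755 CPM in combination replicates 2, 3 and 4, against 0.425 and 0.905 CPM in aPD-1 replicates 3 and 4. The groups overlapped, with a log2 fold change of 0.45 (SE 0.67). Its relative Ido2 had 0.571, 0.393 and 0.863 CPM in the combination libraries, against 0.708 and 1.32 CPM in the aPD-1 libraries, which also overlap (log2 fold change -0.74, SE 0.76). Without the antibody the picture was another, as Ido2 had 6.39, 1.26 and 11.2 CPM in the 3 YH29407 libraries, against 0.568 and 0.784 CPM in the 2 control libraries. For Ido2 the interaction, the fold change made by YH29407 with aPD-1 minus that made without it, was -3.95 on the log2 scale (adjusted p = 0.722 from edgeR). Ido1 had 7.49, 1.78 and 5.82 CPM with YH29407 alone, against 0.540 and 1.43 CPM in the control group, and an interaction of -1.90 (adjusted p = 0.838). Tdo2, the liver enzyme of the same step, did not pass the filter, with 5 counts in combination replicate 4, 0 in the other 2 combination libraries, and 0 and 2 counts in the aPD-1 libraries.

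In the whole tryptophan and kynurenine list, which holds Ido1, Ido2 and amino acid transporters too, log2 fold changes were positive in 12 of the 16 genes tested. The median was 0.42, with 3 nominally higher and 0 nominally lower. With replicate 4 as the only combination library 8 of 16 were positive. Il4i1, an amino acid oxidase of antigen-presenting cells that also yields AhR ligands from tryptophan, had 2.80, 5.84 and 4.55 CPM in the combination libraries, against 0 and 0.521 CPM in the aPD-1 libraries (log2 fold change 4.05, SE 1.41). Its lowest combination value was over 5 times its highest aPD-1 value, and aPD-1 replicate 3 had no count. Kmo, which hydroxylates kynurenine, had 4.69, 7.25 and 1.29 CPM in the combination group, against 1.42 and 0.905 CPM with aPD-1 alone, so that replicate 4 lay between the aPD-1 libraries. Haao, the next dioxygenase, overlapped as well and had a log2 fold change of 1.11 (SE 0.61). Slc6a14, an amino acid transporter of epithelia that carries tryptophan, had 0.812, 0.154 and 0.216 CPM in the combination group and 0 counts in both aPD-1 libraries, at least 8.92-fold higher against a floor of 3 counts per library, and its highest value was in the library with most skin.

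The aryl hydrocarbon receptor itself and its partner stood lower in the combination group. Ahr had 29.6, 29.0 and 13.9 CPM in combination replicates 2, 3 and 4, against 37.6 and 49.3 CPM in aPD-1 replicates 3 and 4 (log2 fold change -0.85, SE 0.33). Arnt, the subunit with which AhR binds DNA, had 179.9, 183 and 142 CPM in the combination group, against 214 and 238 CPM with aPD-1 alone (log2 fold change -0.42, SE 0.16). Tiparp, a target of AhR that feeds back on it, had 54.8, 87.6 and 19.6 CPM in the combination libraries, against 137 and 158 CPM in the aPD-1 libraries (log2 fold change -1.45, SE 0.52). In all 3 genes every combination library lay below both aPD-1 libraries, and replicate 4 was the lowest. Without that replicate 3 genes were nominally lower and 1 nominally higher, and with replicate 4 as the only combination library its median was -1.16. Nqo1, a quinone reductase under AhR and NRF2, had 3.41, 5.60 and 2.64 CPM in the combination group, against 7.92 and 6.82 CPM with aPD-1 alone (log2 fold change -0.92). Cyp1b1, a classic AhR target, had 0.749, 1.22 and 0.378 CPM in the combination group, against 0.866 and 0.425 CPM with aPD-1 alone and no clear order, and Cyp1a1 had 0 counts in all 10 libraries. Of the 11 genes of the list tested, 6 had a positive and 5 a negative estimate, 3 were nominally lower and 0 nominally higher, and the median was 0.28. In a fit with added terms for the replicate number (a replicate block), 4 of 11 were positive and the median was -0.36, with 0 nominally lower. No gene of the list was called by DESeq2 in either fit.

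AhR and ARNT bind DNA at a core of 5 bases, GCGTG, read as CACGC on the other strand. RefSeq promoter windows of the GRCm38.p6 build, from 250 bases before to 50 after the start of the gene, were at hand for 8 of the tested genes of the list, and 4 of them hold the core on either strand. Of all 32851 windows, 32.4% hold it, so that such a match is common. The windows of Tiparp (chr3:65528197-65528496, plus strand), Cyp1b1 (chr17:79715012-79715311, minus strand) and Nqo1 (chr8:107403156-107403455, minus strand) are shown because they are the targets described above, of which Tiparp and Nqo1 lay lower in every combination library and Cyp1b1 overlapped. The core is in capitals on the strand of the gene.
Tiparp: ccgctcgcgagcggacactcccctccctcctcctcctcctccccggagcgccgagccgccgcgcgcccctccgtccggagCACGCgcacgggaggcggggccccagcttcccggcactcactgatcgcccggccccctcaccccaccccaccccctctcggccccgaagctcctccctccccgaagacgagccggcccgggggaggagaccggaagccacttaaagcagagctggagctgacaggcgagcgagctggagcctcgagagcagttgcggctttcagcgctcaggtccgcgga
Cyp1b1: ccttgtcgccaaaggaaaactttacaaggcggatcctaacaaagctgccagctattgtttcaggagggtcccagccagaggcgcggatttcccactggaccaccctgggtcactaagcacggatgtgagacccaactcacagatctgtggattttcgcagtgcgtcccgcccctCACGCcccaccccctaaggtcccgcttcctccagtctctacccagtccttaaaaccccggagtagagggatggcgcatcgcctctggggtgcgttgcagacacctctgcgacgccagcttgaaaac
Nqo1: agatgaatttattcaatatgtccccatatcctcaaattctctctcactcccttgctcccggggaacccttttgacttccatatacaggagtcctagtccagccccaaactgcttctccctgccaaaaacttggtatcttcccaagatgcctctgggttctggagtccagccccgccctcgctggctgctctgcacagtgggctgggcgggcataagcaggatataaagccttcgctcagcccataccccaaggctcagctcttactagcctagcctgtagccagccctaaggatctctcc
Tiparp and Cyp1b1 each hold the core once, as CACGC, and Nqo1 does not hold these letters in the window. A match is a description of sequence, and binding was not measured.

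In the amino acid stress response, the estimate was positive in 12 of 23 genes, 3 were nominally higher and 1 nominally lower, and the median was 0.09, which turned to -0.08 without combination replicate 4. Fgf21, a hormone induced by ATF4, had 0.508, 0.645 and 1.10 CPM in the combination libraries, against 0.0472 and 0.0960 CPM in the aPD-1 libraries (log2 fold change 3.34, SE 0.89). Chac1, a glutathione-degrading ATF4 target, had 8.01, 7.32 and 27.3 CPM in the combination group, against 3.84 and 4.11 CPM with aPD-1 alone, and Trib3, a pseudokinase of the same response, had 28.8, 20.1 and 72.3 CPM, against 17.0 and 19.9 CPM. Both were highest in replicate 4, and in Trib3 replicate 3 lay just above aPD-1 replicate 4. Vldlr, a lipoprotein receptor, was lower, with 55.1, 69.2 and 48.9 CPM in the combination group, against 100.3 and 108 CPM with aPD-1 alone (log2 fold change -0.85).

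Genes of T cell identity had higher estimates in the combination group. The estimate was positive in 25 of 26 genes, their median log2 fold change was 1.18 beside 0.10 for all genes, and the list had 8 nominally higher and 0 nominally lower. Lat, the adaptor that links the T cell receptor to its signaling enzymes, had 6.03, 4.56 and 6.78 CPM in combination replicates 2, 3 and 4, against 1.42 and 1.32 CPM in aPD-1 replicates 3 and 4 (log2 fold change 2.08, SE 0.49). Every combination library was over 3 times the higher aPD-1 library, and Lat lies on chromosome 7, 126363827 to 126369705 of mm10. Cd6, a surface receptor of T cells that binds ALCAM, had 7.61, 6.79 and 5.20 CPM in the combination group, against 2.23 and 2.44 CPM with aPD-1 alone (log2 fold change 1.48, SE 0.41). Its relative Cd5 had 3.48, 3.03 and 1.64 CPM in the combination group, against 0.803 and 0.782 CPM with aPD-1 alone (log2 fold change 1.78, SE 0.49). These 3 genes were also above aPD-1 in replicate 4 and were called by DESeq2 in both fits, with adjusted p of 0.00405, 0.0174 and 0.0257 on the 10 libraries. Bcl11b, a transcription factor that commits cells to the T lineage, had 4.78, 2.47 and 0.773 CPM in the combination group, against 0.472 and 0.631 CPM with aPD-1 alone, a smaller gap in replicate 4.

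The coreceptors and kinases split between the combination libraries. Cd4 stood at 3.24, 3.16 and 0.719 CPM in the combination group, against 0.771 and 1.63 CPM with aPD-1 alone, and replicate 4 was the lowest of the 5. Cd8a had 10.8, 12.7 and 3.99 CPM in the combination group, against 4.06 and 3.22 CPM with aPD-1 alone, with replicate 4 between the aPD-1 libraries (log2 fold change 1.33, SE 1.003). The kinase Lck, which starts receptor signaling, had 13.8, 14.6 and 3.54 CPM in the combination group, against 4.31 and 4.20 CPM with aPD-1 alone, and here replicate 4 lay below both. Zap70, the kinase that acts after Lck, was above aPD-1 in every combination library, with 4.099, 4.60 and 2.72 CPM in the combination group, against 1.87 and 1.97 CPM with aPD-1 alone (log2 fold change 0.98, SE 0.62). The calcineurin target Nfatc2 had 18.2, 18.4 and 15.2 CPM, against 13.8 and 14.9 CPM (log2 fold change 0.27, SE 0.32). The mean log2 CPM of the whole list was 2.40, 2.503 and 0.928 in combination replicates 2, 3 and 4, against 0.902 and 1.15 in the aPD-1 libraries. Replicates 2 and 3, those with high skin genes, thus stood above both aPD-1 libraries, and replicate 4 lay between them. Without replicate 4, 16 of the 26 genes were nominally higher and the median was 1.53. With replicate 4 as the only combination library 12 of 26 were positive and the median was -0.15.

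**Figure D2:**
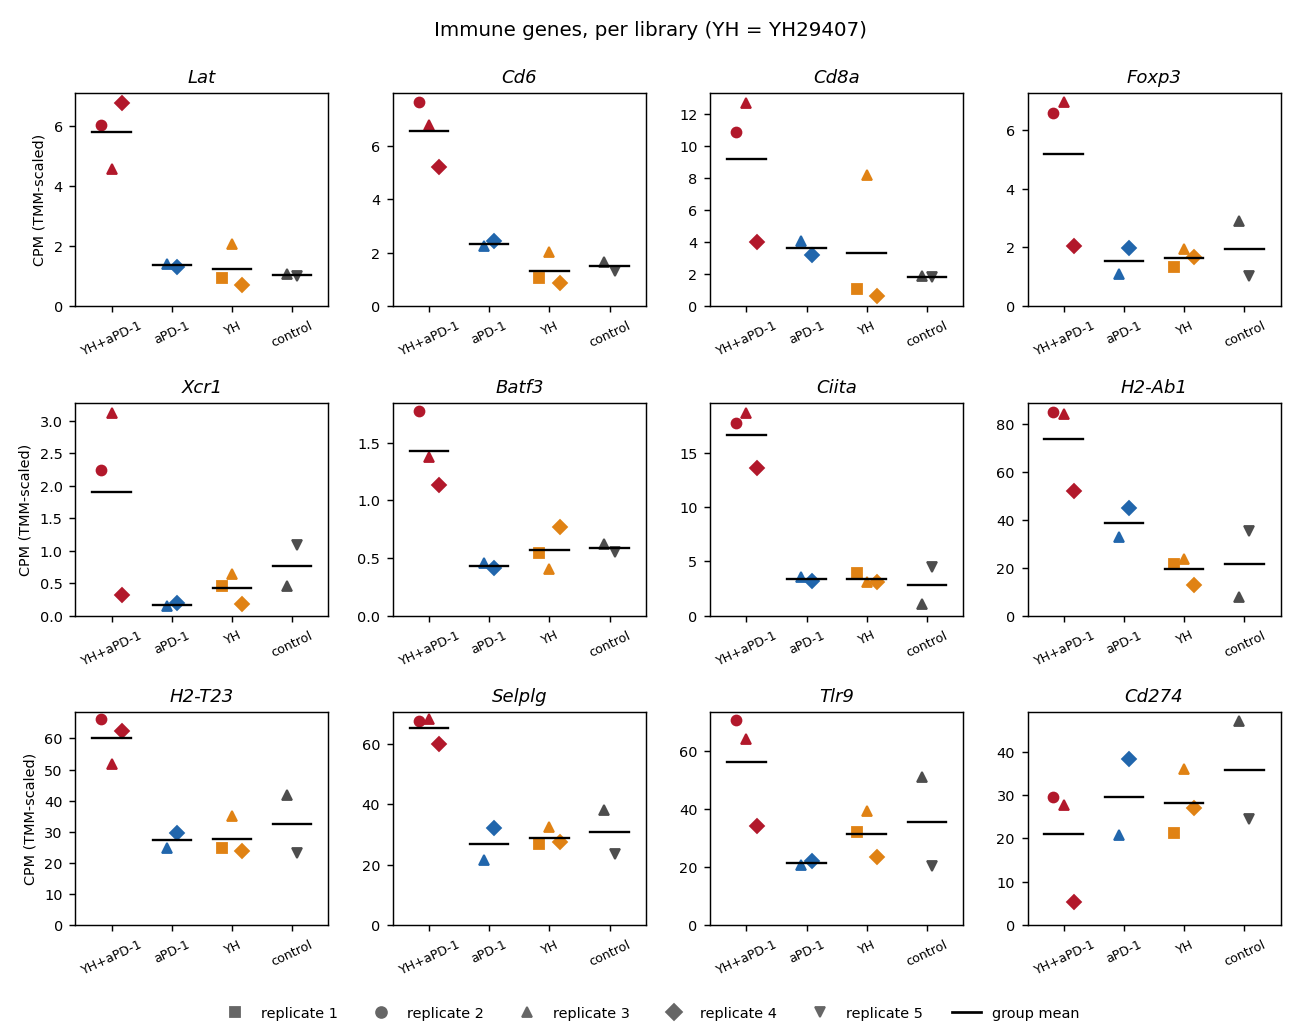
CPM of 12 genes in each library (symbols, by replicate) with the group mean (line), groups from left to right YH29407+aPD-1, aPD-1, YH29407 and control. Lat, Cd6, Batf3, Ciita, H2-T23 and Selplg lie above both aPD-1 libraries in all 3 combination libraries, whereas Cd8a has replicate 4 at 3.99 CPM between the aPD-1 values, and Cd274 overlaps.

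Effector genes of cytotoxic cells had a smaller median than the identity genes, a difference that was not tested. Of 24 tested, 15 were positive and 9 negative in log2 fold change (median 0.44), with 2 nominally higher and 0 nominally lower. Among all genes 55.5% were positive and 5.76% nominally higher. Tbx21, the transcription factor of type 1 effector cells, had 3.15, 2.99 and 1.96 CPM in the combination group, against 0.850 and 1.26 CPM with aPD-1 alone (log2 fold change 1.35, SE 0.55). Il2rb, a chain of the receptors for interleukin-2 and interleukin-15, had 45.2, 50.6 and 41.6 CPM in the combination group, against 16.2 and 31.8 CPM with aPD-1 alone (log2 fold change 0.93, SE 0.39). Nkg7, a protein of cytotoxic granules, had 10.9, 10.96 and 8.13 CPM, against 3.18 and 5.39 CPM, and the chemokine Ccl4 had 12.2, 10.2 and 5.81 CPM, against 2.93 and 5.499 CPM, both above aPD-1 in every combination library without being nominal. These 4 were the members of smallest p, and in 1 member of the list every combination library lay below both aPD-1 libraries. The list summed to 542, 636 and 432 CPM in the combination libraries, against 355 and 840 CPM in aPD-1 replicates 3 and 4. The list's mean log2 CPM was 3.74, 3.94 and 2.08 in combination replicates 2, 3 and 4, against 2.73 and 3.48 with aPD-1 alone, which puts replicate 4 below both. With that replicate as the only combination library the median was -0.78. Among the receptors of natural killer cells, 15 of 18 genes were positive (median 0.58), and 0 were nominal in either direction. The sign of that list turned with the libraries: with replicate 4 as the only combination library 0 of 18 were positive (median -1.72, 11 nominally lower), and without combination replicate 3 there were 7 of 18 (median -0.23).

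Of 18 checkpoint genes, 15 were positive in log2 fold change (median 0.72), and 1 was nominally higher, a share near that of all genes. In the fit on combination replicate 4 alone 5 of 18 were positive (median -0.9999, 6 nominally lower), and without it 17 of 18 (median 1.10). The nominal gene was Vsir, which encodes VISTA, with 30.7, 35.9 and 17.9 CPM in the combination group, against 16.6 and 15.02 CPM with aPD-1 alone (log2 fold change 0.83, SE 0.29). Lag3, an inhibitory receptor that binds MHC class II, had 10.04, 9.01 and 6.82 CPM in the combination libraries, against 2.47 and 5.44 CPM in the aPD-1 libraries. Pdcd1, the gene of PD-1 itself, had 4.33, 5.32 and 1.47 CPM in the combination group, against 1.35 and 1.49 CPM with aPD-1 alone, and Tox, a factor of exhausted T cells, had 6.65, 5.53 and 1.22 CPM, against 1.32 and 1.49 CPM. In Tox replicate 4 was the lowest of the 5 libraries and in Pdcd1 it lay between the aPD-1 libraries. Cd274, the ligand PD-L1, had 29.5, 27.8 and 5.45 CPM in the combination group, against 20.8 and 38.3 CPM with aPD-1 alone (log2 fold change -0.50, SE 0.64), and its sign turned without aPD-1 replicate 4, to 0.03.

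Regulatory T cell genes also had higher estimates in the combination group. Of 14, 12 were positive in log2 fold change (median 0.91), with 3 nominally higher and 0 nominally lower. Foxp3, the factor that defines these cells, had 6.56, 6.94 and 2.05 CPM in combination replicates 2, 3 and 4, against 1.09 and 1.97 CPM in aPD-1 replicates 3 and 4 (log2 fold change 1.76, SE 0.64). The chemokine receptor Ccr4 had 0.761, 0.645 and 0.198 CPM in the combination group, against 0.126 and 0.110 CPM with aPD-1 alone, and the integrin Itgae had 4.67, 5.34 and 1.56 CPM, against 1.04 and 1.73 CPM. Tnfrsf18, which encodes GITR, overlapped between the groups (log2 fold change 0.91). In replicate 4 Foxp3 lay just above the higher aPD-1 library, Ccr4 less than 2 times above it, and Itgae between the aPD-1 libraries. The list's mean log2 CPM was 1.95, 2.12 and 0.333 in combination replicates 2, 3 and 4, against 0.660 and 1.12 with aPD-1 alone. For the list as a whole, replicate 4 was thus below both aPD-1 libraries. Taking combination replicate 4 alone, 7 of 14 genes were positive.

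Dendritic cell genes also had higher estimates in the combination group, and this list shares Bst2, Ccr7, Irf8 and Itgae with other lists. Of 22 tested, 19 were positive in log2 fold change (median 0.71), with 9 nominally higher and 1 nominally lower. Flt3, the receptor whose ligand drives dendritic cell development, had 4.11, 5.18 and 3.04 CPM in combination replicates 2, 3 and 4, against 0.740 and 0.850 CPM in aPD-1 replicates 3 and 4 (log2 fold change 2.37, SE 0.35). Flt3 lies on chromosome 5, 147330741 to 147400489 of mm10, its lowest combination value was over 3 times its highest aPD-1 value, and it was called by DESeq2 in both fits and by edgeR without combination replicate 4 (adjusted p = 0.0484). Batf3, Xcr1 and Clec9a, markers of the cross-presenting subset cDC1, had higher values as well. Batf3, the transcription factor of that subset, had 1.78, 1.37 and 1.13 CPM in the combination group, against 0.456 and 0.411 CPM with aPD-1 alone (log2 fold change 1.72, SE 0.43). Xcr1, its chemokine receptor, had 2.25, 3.13 and 0.324 CPM in the combination group, against 0.142 and 0.192 CPM with aPD-1 alone (log2 fold change 3.49, SE 1.03). Clec9a, its receptor for dead cells, had 0.660, 0.912 and 0.486 CPM in the combination group, against 0 and 0.0686 CPM with aPD-1 alone, with no count in aPD-1 replicate 3. All 4 lay above both aPD-1 libraries in every combination library, though Xcr1 in replicate 4 was several times lower than in replicates 2 and 3. Of the 22 genes, 3 had a negative estimate. Among them was Ly75, an uptake receptor of dendritic cells and other cells, at 114, 146 and 92.0 CPM in the combination group, against 184 and 192 CPM with aPD-1 alone. It was the 1 member with every combination library below both aPD-1 libraries. Without replicate 4, 12 of 22 were nominally higher and 1 nominally lower. With replicate 4 as the only combination library the counts were 5 nominally higher and 6 nominally lower. With 1 aPD-1 library left, whose spread is then assumed to be that of the other groups, these counts shrank: without aPD-1 replicate 3, 4 dendritic cell, 2 T cell, 1 interferon gamma and 0 regulatory T cell genes were higher, and without aPD-1 replicate 4 the counts were 7, 3, 2 and 2. For the AhR list 1 gene was lower without aPD-1 replicate 3 and 0 without aPD-1 replicate 4, and for the Toll-like receptors 1 was higher without either.

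**Figure D3:**
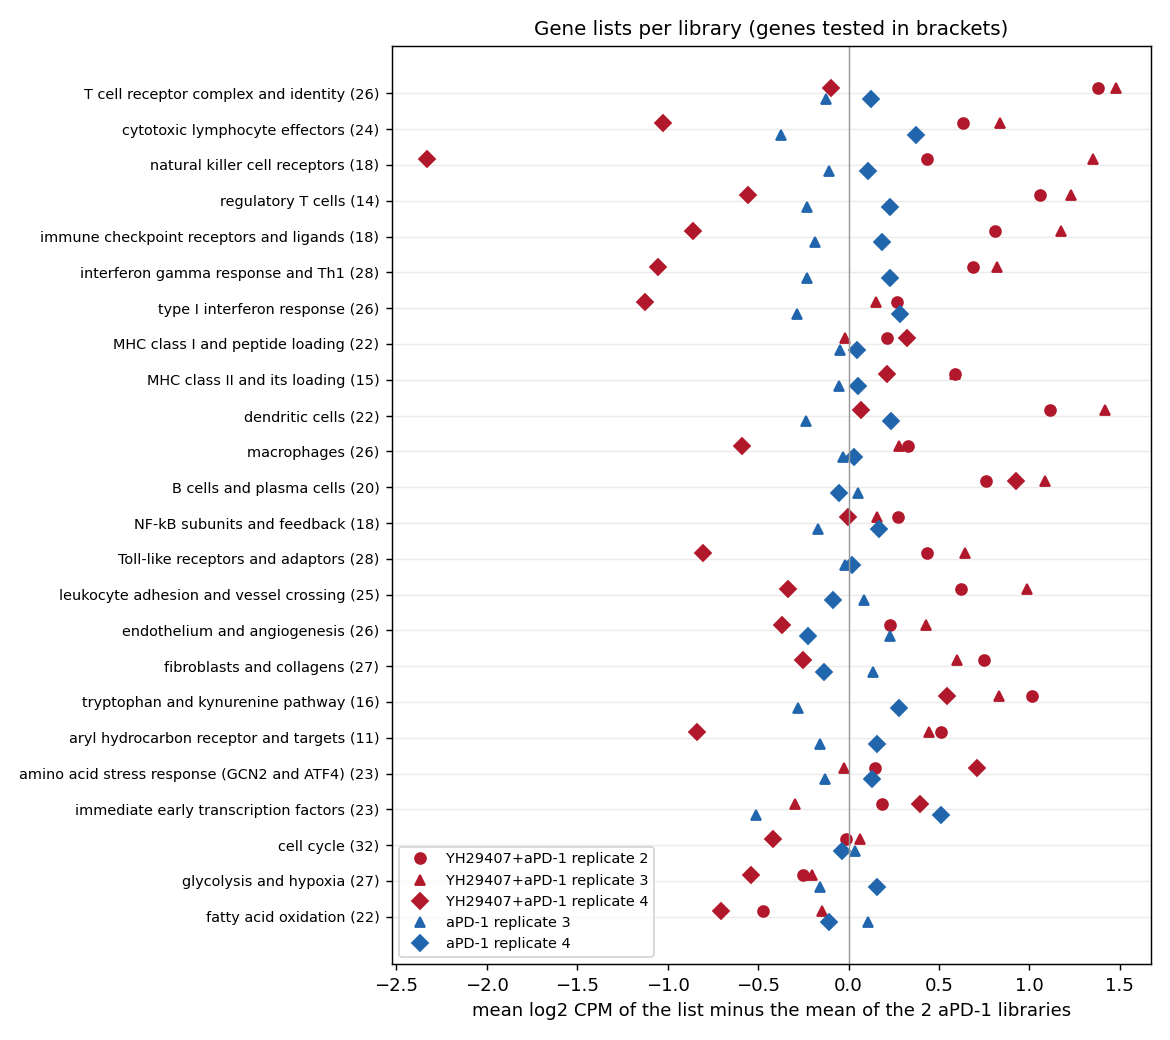
Mean log2 CPM of 24 gene lists in each of the 5 libraries, shown as the difference from the mean of the aPD-1 libraries, with combination libraries in red above aPD-1 libraries in blue. For the T cell, regulatory T cell and dendritic cell lists combination replicates 2 and 3 lie right of both aPD-1 libraries, and combination replicate 4 lies near or left of them, whereas in the B cell list all 3 lie to the right.

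Ciita, the transactivator that switches class II genes on, had 17.8, 18.7 and 13.6 CPM in combination replicates 2, 3 and 4, against 3.54 and 3.22 CPM in aPD-1 replicates 3 and 4 (log2 fold change 2.304, SE 0.54). The lowest combination library was over 3 times the highest aPD-1 library, and DESeq2 called Ciita in both fits (adjusted p = 0.00151 on the 10 libraries). H2-Ab1, a class II chain, had 84.8, 84.1 and 51.8 CPM in the combination group, against 32.7 and 44.8 CPM with aPD-1 alone (log2 fold change 0.92, SE 0.58). H2-Eb1, a further class II gene, had 64.3, 66.5 and 45.8 CPM in the combination group, against 26.0 and 35.8 CPM with aPD-1 alone. The peptide exchange chains H2-DMa and H2-DMb2 had log2 fold changes of 0.51 and 0.67, again with no overlap of the libraries. Of 15 genes tested, 12 were positive (median 0.51), and Ciita was the 1 nominally higher gene, with 0 nominally lower, a share near that of all genes. In the fit on combination replicate 4 alone 9 of 16 were positive (median 0.16). Without the antibody H2-Ab1 had 21.6, 23.8 and 12.9 CPM with YH29407 alone, against 7.60 and 35.1 CPM in the control libraries, where the controls lay on both sides.

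For class I and peptide loading, 15 of 22 genes were positive (median 0.16), with 2 nominally higher and 0 nominally lower. The median was 0.03 without combination replicate 4 and 0.19 with that replicate as the only combination library. H2-T23, a class Ib molecule that presents leader peptides to natural killer receptors, had 66.2, 51.9 and 62.4 CPM in the combination group, against 24.9 and 29.5 CPM with aPD-1 alone (log2 fold change 1.14, SE 0.30). H2-Q7 had 97.1, 66.7 and 119 CPM in the combination group, against 54.3 and 55.7 CPM with aPD-1 alone, and H2-Q6, a near copy with which it can share reads, had a log2 fold change of 0.50. The immunoproteasome subunit Psmb9 had 73.1, 61.7 and 74.4 CPM, against 48.5 and 54.1 CPM. B2m, the light chain that class I molecules share, had 292, 234 and 279 CPM in the combination group, against 272 and 258 CPM with aPD-1 alone (log2 fold change 0.02, SE 0.15). The peptide transporter Tap2 had 139, 119.9 and 209 CPM in the combination group, against 119 and 135 CPM with aPD-1 alone (log2 fold change 0.29, SE 0.28).

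Of 28 genes of the interferon gamma response and Th1 cells, 17 were positive (median 0.40), with 4 nominally higher and 0 nominally lower. These were Ciita and Tbx21, given above, Irf8, a factor of macrophages and dendritic cells, and Socs1, the feedback inhibitor of cytokine signaling. Irf8 had 28.9, 30.1 and 21.7 CPM in the combination group, against 14.6 and 17.96 CPM with aPD-1 alone (log2 fold change 0.73, SE 0.27). Socs1 had 25.5, 14.7 and 120.4 CPM in the combination group, against 8.69 and 12.4 CPM with aPD-1 alone, and replicate 4 was over 4 times the other 2. Without replicate 4, 8 genes of the list were higher. In the fit with a replicate block 13 of 28 were positive and the median turned to -0.41, with 1 nominally higher. Taking combination replicate 4 alone, 2 were nominally higher, 14 nominally lower and the median was -1.54. The type I interferon list had 10 of 26 genes positive (median -0.06), with 0 nominally higher and 1 nominally lower. With replicate 4 as the only combination library 1 of 26 was positive, and without it 17 were (median 0.29).

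Among myeloid and B cell genes, the lists differed. The macrophage list was balanced, with 13 positive and 13 negative (median -0.01), with 3 nominally higher and 0 nominally lower. In the fit on combination replicate 4 alone 8 of 26 were positive (median -1.04). Maf, a factor of resident macrophages, had 31.7, 24.1 and 57.0 CPM in the combination group, against 15.5 and 14.3 CPM with aPD-1 alone (log2 fold change 1.33, SE 0.36). C1qc, a chain of complement C1q, had 104, 103 and 92.5 CPM in the combination group, against 66.9 and 79.5 CPM with aPD-1 alone, and C1qa had 95.0, 95.0 and 106 CPM, against 75.8 and 76.0 CPM. Retnla, a gene of alternatively activated macrophages and of fat, had only 0.964, 0.0701 and 1.87 CPM in the combination group, against 0 and 0.0137 CPM with aPD-1 alone. Of 20 B cell and plasma cell genes 17 were positive (median 1.17), with 3 nominally higher and 0 nominally lower. The median was smaller on the 5 libraries compared (0.47, 13 of 16 positive) and with replicate 4 as the only combination library (0.31, 11 of 20). Cd79b, a chain of the B cell receptor, had 2.21, 5.39 and 1.26 CPM in the combination group, against 0.519 and 0.905 CPM with aPD-1 alone, and Igkc, the kappa constant region, had 2.56, 10.2 and 0.719 CPM, against 0.283 and 0.370 CPM. Jchain, which joins polymeric antibodies, had 0.279, 0.631 and 0.234 CPM in the combination group and 0 counts in both aPD-1 libraries, at least 8.63-fold higher against the floor. Cxcl13, the chemokine of B cell follicles, had 0.609, 0.449 and 0 CPM in the combination group and 0 counts with aPD-1 alone.
Neutrophil genes had 18 of 19 positive, with 5 nominally higher and 0 nominally lower, but 5 of the 19 were at 0 counts in both aPD-1 libraries, and the median of 2.85 became 1.97 with those at their bound. Mast cell and eosinophil genes had 13 of 14 positive, with 2 nominally higher and 0 nominally lower (median 1.13). Taking combination replicate 4 alone, 8 of 19 neutrophil genes were positive and 7 of 15 mast cell and eosinophil genes (median -0.07), and without combination replicate 2 the medians were 1.53 and 0.57.

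Of the Toll-like receptors and their adaptors, 18 of 28 were positive, with 4 nominally higher and 0 nominally lower. Tlr12, an endosomal receptor of mice, had 11.04, 9.02 and 8.67 CPM in combination replicates 2, 3 and 4, against 1.40 and 1.97 CPM in aPD-1 replicates 3 and 4 (log2 fold change 2.503, SE 0.61). Tlr9, the receptor for unmethylated DNA, had 70.6, 63.9 and 34.2 CPM in the combination group, against 20.8 and 22.1 CPM with aPD-1 alone (log2 fold change 1.39, SE 0.45). Tlr11 had 2.88, 4.94 and 1.02 CPM in the combination group, against 0.834 and 0.645 CPM with aPD-1 alone. Myd88, the adaptor that these receptors share, had 60.3, 54.0 and 83.0 CPM in the combination group, against 39.7 and 40.0 CPM with aPD-1 alone (log2 fold change 0.72, SE 0.23). In these 4 genes no combination library overlapped an aPD-1 library, and they were the 4 nominally higher ones. The median of the list was 0.15, without combination replicate 3 it was -0.01, and with replicate 4 as the only combination library it was -0.63, with 8 of 28 positive, 3 nominally higher and 12 nominally lower.

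In the NF-kB list, 11 of 18 genes were positive (median 0.20), with 2 nominally higher and 0 nominally lower. Bcl3, a nuclear partner of NF-kB, had 119, 78.9 and 214 CPM in the combination group, against 37.0 and 62.8 CPM with aPD-1 alone (log2 fold change 1.46, SE 0.48). Map3k14, the kinase that starts the noncanonical branch, had 68.9, 61.9 and 77.9 CPM, against 44.1 and 47.4 CPM. Relb, the subunit of that branch, had 82.0, 63.2 and 141 CPM, against 47.4 and 59.0 CPM, and the inhibitor Nfkbib had 49.3, 38.9 and 71.0 CPM, against 32.4 and 37.5 CPM. All 4 were highest in replicate 4 and also lay above both aPD-1 libraries in replicates 2 and 3, while with replicate 4 as the only combination library 9 of the 18 genes were positive.

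Of 25 genes with which leukocytes leave the blood, 17 were positive (median 0.69), with 5 nominally higher and 0 nominally lower. Selplg, the ligand with which leukocytes roll on selectins, had 67.4, 68.0 and 60.0 CPM in combination replicates 2, 3 and 4, against 21.7 and 31.98 CPM in aPD-1 replicates 3 and 4 (log2 fold change 1.28, SE 0.27). It was among the most even of the immune genes, with replicate 4 close to the other 2 combination libraries. Rac2, a GTPase of blood cells, had 50.6, 60.2 and 21.2 CPM in the combination group, against 14.5 and 19.1 CPM with aPD-1 alone (log2 fold change 1.39, SE 0.44). F11r, a junction protein that leukocytes cross, had 18.5, 26.1 and 28.6 CPM, against 14.7 and 11.1 CPM, and Madcam1, an addressin of gut vessels, had 1.94, 0.954 and 0.773 CPM, against 0.126 and 0.192 CPM. Icam1, the endothelial ligand of leukocyte integrins, had 39.0, 41.1 and 15.6 CPM in the combination group, against 14.7 and 20.1 CPM with aPD-1 alone, with replicate 4 between the aPD-1 libraries (log2 fold change 0.88, SE 0.42). With replicate 4 as the only combination library 7 of the 25 adhesion genes were positive (median -0.59, 1 nominally higher and 9 nominally lower). Of 14 lymphoid chemokines and lymphotoxins 12 were positive, with 2 nominally higher and 0 nominally lower (median 0.74), and with replicate 4 as the only combination library 4 of 14 (median -0.61).

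Endothelial genes differed in both directions, with 3 nominally higher and 3 nominally lower of 26 (median 0.35). Angpt2, the angiopoietin that loosens vessels, had 10.6, 12.2 and 4.05 CPM in the combination group, against 26.6 and 28.5 CPM with aPD-1 alone (log2 fold change -1.62, SE 0.41). Vwf, the von Willebrand factor, had 12.4, 8.60 and 9.57 CPM in the combination group, against 31.3 and 31.0 CPM with aPD-1 alone (log2 fold change -1.61, SE 0.43). Esm1, a proteoglycan of sprouting tip cells, had 1.99, 2.51 and 2.63 CPM in the combination group, against 6.92 and 5.81 CPM with aPD-1 alone (log2 fold change -1.42, SE 0.34). In these 3 genes every combination library was far below both aPD-1 libraries. Dll4, the Notch ligand of tip cells, was higher, with 47.8, 30.0 and 14.1 CPM in the combination group, against 9.73 and 10.6 CPM with aPD-1 alone (log2 fold change 1.59, SE 0.56). In the fit on combination replicate 4 alone the median of the list was -0.28.

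Few of the genes above were among those with the smallest p. Plcxd1, which holds a phospholipase domain and lies on chromosome 5, 110099969 to 110105953, had 1.55, 0.912 and 1.83 CPM in the combination libraries and 0 counts in both aPD-1 libraries, at least 32.4-fold higher against a floor of 3 counts per library (adjusted p = 0.0963 from edgeR). In the other groups Plcxd1 had 0.539, 0.777 and 0.577 CPM with YH29407 alone, against 0.696 and 0.741 CPM in the control group, so that the aPD-1 libraries were the only ones without a count. Of the 15 higher genes of smallest p, 9 were at 0 counts in both aPD-1 libraries, as were 657 of all genes tested. Ffar2, the receptor for short-chain fatty acids on neutrophils and other leukocytes, had 1.41, 0.687 and 0.791 CPM in the combination group, at least 21.8-fold higher. Nat8l, which makes N-acetylaspartate, had 0.964, 0.561 and 0.252 CPM (at least 13.4-fold), and Cxxc4, an inhibitor of Wnt signaling, had 0.469, 0.842 and 0.252 CPM (at least 11.8-fold). Ifnlr1, a chain of the interferon lambda receptor, had 0.241, 0.575 and 0.378 CPM (at least 9.01-fold), and Slc27a2, a transporter of fatty acids, had 0.381, 0.533 and 0.252 CPM (at least 8.79-fold). Slc5a11, an inositol transporter, F9, the clotting factor IX, and Efcab13 were at least 8.27-fold, 7.75-fold and 7.52-fold higher, all at low levels.

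The other 6 higher genes had counts in every library. Asb2, a subunit of ubiquitin ligases in muscle and blood cells, had 4.83, 7.70 and 1.74 CPM in the combination group, against 0.173 and 0.192 CPM with aPD-1 alone (log2 fold change 4.69, SE 0.73). Abi3, an actin regulator of the WAVE complex, had 22.9, 21.5 and 31.1 CPM in the combination group, against 5.30 and 6.54 CPM with aPD-1 alone (log2 fold change 2.09, SE 0.35). Egr3, an immediate early factor that T cell receptor signaling induces, had 8.15, 4.70 and 11.9 CPM in the combination group, against 1.495 and 1.80 CPM with aPD-1 alone (log2 fold change 2.32, SE 0.42). Ldb3, a protein of the muscle Z-disc, had 1.81, 1.22 and 1.82 CPM, against 0.252 and 0.192 CPM, and muscle genes also summed higher in the combination libraries. Scel, of the cornified envelope, had 6.99, 5.53 and 3.11 CPM, against 0.866 and 0.891 CPM, and was above both aPD-1 libraries also in replicate 4, where skin genes summed below aPD-1. Flt3, given above, is the remaining one. The immediate early list as a whole had 3 nominally higher and 2 nominally lower of 23 (median 0.10). Its median was -0.21 without combination replicate 4 and 0.29 with that replicate as the only combination library. Ier2 had 34.8, 22.2 and 82.8 CPM in the combination group, against 15.5 and 23.4 CPM with aPD-1 alone, Klf6 had 65.4, 67.3 and 44.5 CPM, against 76.7 and 124 CPM, and Fosb had 1.80, 1.35 and 3.15 CPM, against 2.28 and 16.1 CPM, so that combination replicate 4 was highest in Ier2 and aPD-1 replicate 4 in Fosb.

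**Figure D4:**
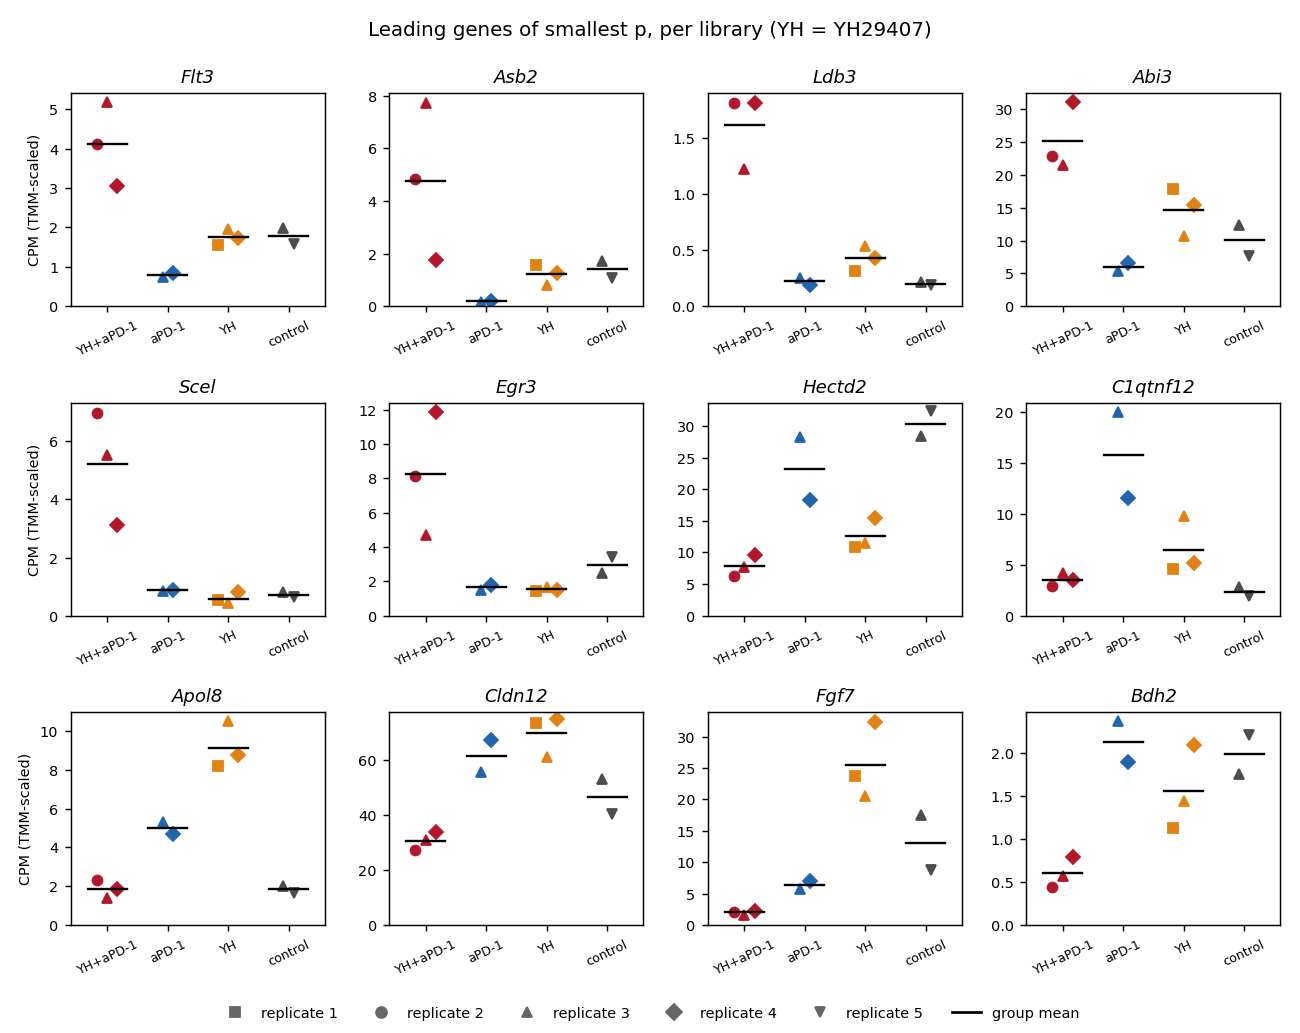
CPM of 12 leading genes in each library (symbols, by replicate) with the group mean (line), groups from left to right YH29407+aPD-1, aPD-1, YH29407 and control. The first 6 panels are genes above both aPD-1 libraries in every combination library, and the last 6 are genes below both, among them Fgf7 and Apol8, which are highest with YH29407 alone.

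The 15 lower genes of smallest p follow. Fgf7, the keratinocyte growth factor made by stroma, had 2.17, 1.61 and 2.28 CPM in combination replicates 2, 3 and 4, against 5.74 and 7.03 CPM in aPD-1 replicates 3 and 4 (log2 fold change -1.66, SE 0.35). Met, the receptor of hepatocyte growth factor, had 23.2, 33.6 and 33.6 CPM in the combination group, against 70.7 and 73.0 CPM with aPD-1 alone (log2 fold change -1.25, SE 0.29). Cldn12, a claudin, had 27.4, 30.9 and 33.9 CPM in the combination group, against 55.6 and 67.2 CPM with aPD-1 alone (SE of the log2 fold change 0.21). The 3 combination libraries were close together in each of these, replicate 4 included. Hectd2, a ubiquitin ligase on chromosome 19, 36554126 to 36621135, had the smallest p of the lower genes, with 6.28, 7.76 and 9.67 CPM in the combination group, against 28.3 and 18.2 CPM with aPD-1 alone (log2 fold change -1.56, SE 0.29). It was lower also with YH29407 alone, at 10.8, 11.6 and 15.4 CPM, against 28.4 and 32.4 CPM in the control group (log2 fold change -1.27). Pfn2, an actin-binding profilin, shared that order, with 5.22, 5.85 and 5.02 CPM in the combination group, against 11.2 and 10.4 CPM with aPD-1 alone, and 4.01, 5.54 and 4.92 CPM with YH29407 alone, against 13.0 and 11.3 CPM in the control group.

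C1qtnf12, the secreted protein adipolin, had 2.91, 4.19 and 3.49 CPM in the combination group, against 19.96 and 11.5 CPM with aPD-1 alone (log2 fold change -2.16, SE 0.41). Apol8, of the apolipoprotein L family, had 2.32, 1.39 and 1.85 CPM in the combination group, against 5.34 and 4.70 CPM with aPD-1 alone (log2 fold change -1.44, SE 0.29). Ccn1, a matrix protein induced by YAP, had 30.0, 29.9 and 23.6 CPM, against 57.2 and 147 CPM, and Plk2, a kinase of the stress response, had 59.9, 71.5 and 31.8 CPM, against 142 and 199.8 CPM. Stard13 had 49.9, 56.9 and 53.5 CPM, against 92.7 and 154 CPM, and the metallothionein Mt2 had 32.6, 30.8 and 32.4 CPM, against 58.4 and 88.1 CPM. Eda2r, a receptor of the TNF receptor family under p53, had 3.68, 5.26 and 4.21 CPM, against 11.9 and 13.1 CPM. Bdh2, a dehydrogenase, and Sgtb, a cochaperone, had log2 fold changes of -1.82 and -1.37. In all 15 genes the groups do not overlap, which the naming rule required. Of the 30 leading genes, 29 were called by both DESeq2 fits and Bdh2 by that on the 10 libraries only. The 30 genes had been chosen by their p in the same counts, so that these calls are a description and no separate test.

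Without the antibody, YH29407 was set against control in other tumors (3 against 2), where edgeR called 0 of 21523 genes (0%), with 978 genes (4.54%) nominal. The interaction called 0 genes as well (0%, smallest adjusted p 0.144), with 1328 genes (6.17%) nominal, and DESeq2 called 126 positive and 58 negative ones. In 286 genes (1.33%) every combination library lay above both aPD-1 libraries and every YH29407 library below both controls, and in 368 (1.71%) the order was the reverse. In 450 genes (2.09%) the libraries with YH29407 lay above in both pairs, and in 493 (2.29%) below in both. Apol8 was among the genes with opposite order, with 8.17, 10.5 and 8.77 CPM with YH29407 alone, against 2.02 and 1.68 CPM in the control group, and an interaction of -3.74 (SE 0.43, adjusted p = 0.144 from edgeR). C1qtnf12 had 4.55, 9.76 and 5.14 CPM with YH29407 alone, against 2.78 and 1.95 CPM in the control group, and an interaction of -3.61 (adjusted p = 0.644). Fgf7 had 23.7, 20.5 and 32.3 CPM with YH29407 alone, against 17.5 and 8.78 CPM in the control group, and an interaction of -2.62 (adjusted p = 0.644). Egr3 ran the other way, with 1.45, 1.66 and 1.47 CPM with YH29407 alone, against 2.47 and 3.39 CPM in the control group, and an interaction of 3.26 (adjusted p = 0.644). In Flt3, the YH29407 and control libraries did not separate, at 1.56, 1.96 and 1.73 CPM with YH29407 alone, against 1.97 and 1.57 CPM in the control group, so that the combination libraries lay above all others and the aPD-1 libraries below all others (interaction 2.38, adjusted p = 0.644). These genes were chosen by the comparison with aPD-1, whose libraries the interaction also uses, so that its p-values are a description.

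**Figure D5:**
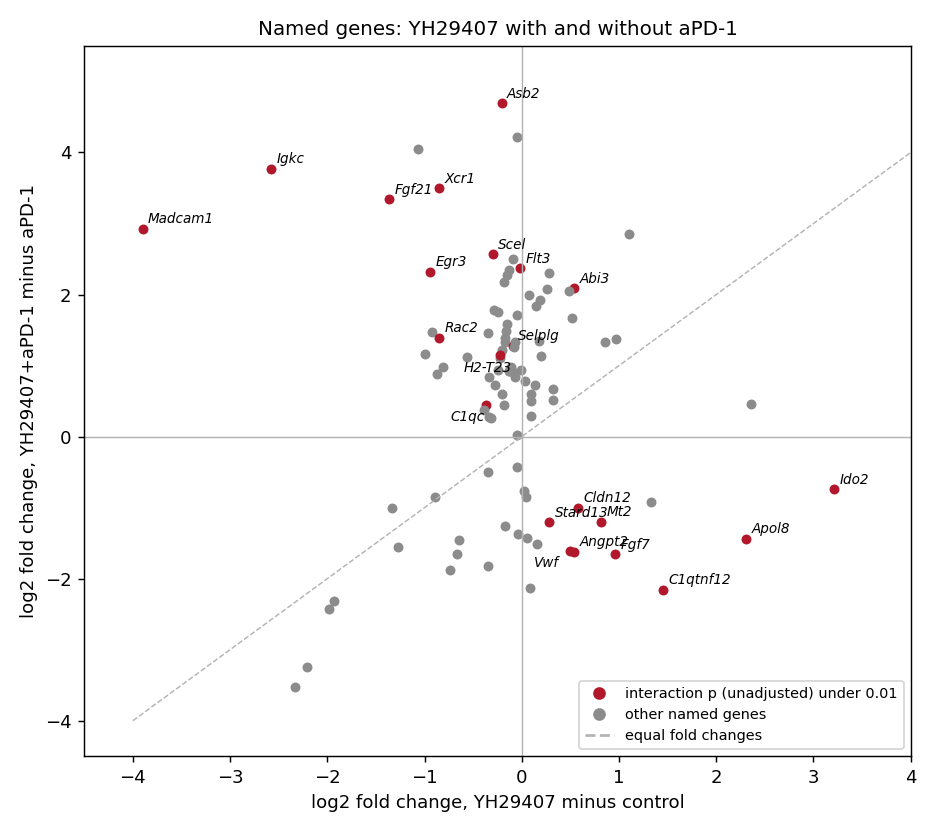
Log2 fold change of each named gene for YH29407+aPD-1 minus aPD-1 (vertical axis) against YH29407 minus control (horizontal axis), leaving out Retnla and genes at 0 counts in both aPD-1 libraries, with an unadjusted interaction p under 0.01 in red. Apol8, C1qtnf12, Ido2 and Fgf7 lie at the lower right, with a positive estimate without the antibody and a negative one with it, and Egr3, Xcr1 and Rac2 at the upper left.

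For T cell identity, 9 of 26 genes were positive between YH29407 and control (median -0.11), against 25 of 26 in the combination comparison, and for dendritic cells 5 of 22 (median -0.18), against 19 of 22. For Toll-like receptors 9 of 28 were positive and for interferon gamma genes 5 of 28. Where 3.04% of all genes were nominally higher and 1.51% nominally lower, none of the T cell, dendritic cell or interferon gamma genes was nominal in either direction. Of the 28 Toll-like receptor genes, 0 were nominally higher and 2 nominally lower. The difference between these list medians was not tested.

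Other lists give the setting of these values. Red cell genes were lower in 11 of 12 (median -1.70, 5 nominally lower and 0 nominally higher), and without aPD-1 replicate 4 the median was 0.43. Alas2, the heme synthesis enzyme of red cells, had 2.86, 3.27 and 2.12 CPM in the combination group, against 3.27 and 60.0 CPM with aPD-1 alone, and the globin Hbb-bs had 35.8, 38.2 and 25.4 CPM, against 34.4 and 321 CPM. Its near copy Hbb-bt had 21.2, 21.4 and 24.2 CPM, against 19.2 and 202 CPM, and Slc4a1, the anion exchanger of the red cell membrane, 0.305, 0.196 and 0.701 CPM, against 0.504 and 7.06 CPM. All 27 skin genes tested were positive, with 23 nominally higher and 0 nominally lower, and all 26 muscle genes were positive, with 4 nominally higher and 0 nominally lower (median 1.54). Fibroblast and collagen genes were positive in 23 of 27, with 2 nominally higher and 1 nominally lower, and in 13 of 27 with replicate 4 as the only combination library. The cell cycle list had 15 of 32 positive and 0 called in either direction (median -0.12). Fatty acid oxidation genes were negative in 18 of 22, with 0 nominally higher and 2 nominally lower (median -0.45). Their median was -0.26 without combination replicate 4 and -0.87 with that replicate as the only combination library. Glycolysis and hypoxia genes were negative in 18 of 27, with 0 nominally higher and 1 nominally lower. Growth factors and receptors had 2 nominally higher and 3 nominally lower of 21, apoptosis and p53 targets 1 higher and 1 lower of 23, source genes of MC38 neoantigens 2 nominally higher and 0 nominally lower of 14, mitochondrial mRNA 1 higher of 13, adipocyte genes 1 higher of 13, nerve genes 1 higher of 11, colon genes 2 higher of 11 and hair follicle genes 0 of 3.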

How the data were processed

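Libraries were made with a SureSelectXT RNA Direct kit from fixed tissue (the labels also name a SMARTER kit) and sequenced as paired reads of 100 bp. The authors trimmed reads, aligned them to mm10 with HISAT2 and assembled and quantified them with StringTie. The methods name 14 samples, of which 10 are analysed here. The deposited table holds read counts per gene, which were used for all main results. The deposited FPKM values, normalized by the authors for length and depth, were used for an alternative only (log2 of FPKM + 1 or + 0.1). The deposited TPM values and the authors' code were not used. Library totals were 56170804 to 76287659 counts.

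Counts were filtered with filterByExpr, scaled by TMM and fitted with edgeR 4.0.16 (R 4.3.3) by the quasi-likelihood method with 1 term per group over 10 libraries, and p-values were adjusted by Benjamini-Hochberg over 21523 genes. The tests are two-sided. The prior count for log2 CPM was 2. Alternatives used DESeq2 1.42.0, limma 3.58.1, other scaling, filters, a replicate block and leaving out libraries. The fit was also run on simulated counts, drawn around a shared mean level per gene with added fold changes and no outlying library. Such a run cannot speak to the skin, muscle, red cell or replicate 4 differences of these libraries. Named genes were the 15 higher and 15 lower of smallest p of at least 1 log2 unit in either direction and with libraries that did not overlap (predicted genes left out), up to 4 members of each described list, and genes of the pathway. The 38 lists and the members were chosen with earlier results of these data known. Genes added after their values were seen are named as such. Promoter sequences are from RefSeq, build GRCm38.p6, the same assembly as mm10. No per-sample column was left out of the map (0 unused). Near-identical copies (H2-Q6 and H2-Q7, Hbb-bs and Hbb-bt) can share reads, and strand-aware counting is not given in the sources used here.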

Additional observations from a re-analysis of the deposited data

Results flagged for a closer look

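In 13 named genes every combination library lay on one side of both aPD-1 libraries and every YH29407 library on the other side of both control libraries. Their interactions, the log2 fold change of YH29407+aPD-1 over aPD-1 minus that of YH29407 over control, were -3.74 for Apol8, -3.61 for C1qtnf12, -1.58 for Cldn12, -2.62 for Fgf7, -2.01 for Mt2 and -2.16 for Angpt2. They were 3.26 for Egr3, 8.82 for Cxxc4, 6.83 for Madcam1, 2.24 for Rac2, 0.81 for C1qc, 0.76 for C1qa and 0.91 for Vsir. The fitted value of Cxxc4 depends on the prior count, as both aPD-1 libraries were at 0 counts. The adjusted p of the interaction from edgeR was 0.144 for Apol8, 0.644 for C1qtnf12 and 0.812 for Vsir. Mt2 had 32.6, 30.8 and 32.4 CPM in the combination group, against 58.4 and 88.1 CPM with aPD-1 alone, and 77.2, 80.0 and 107 CPM with YH29407 alone, against 36.2 and 64.1 CPM in the control group. Angpt2 had 14.9, 22.4 and 19.96 CPM with YH29407 alone, against 12.4 and 13.9 CPM in the control group, and Rac2 12.9, 13.5 and 17.0 CPM, against 32.04 and 20.3 CPM. The genes were chosen with libraries that the interaction also uses. Groups of 3 or fewer libraries were not searched for outlying samples.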

How the results depend on the processing

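At an adjusted p under 0.05, where edgeR called 0 genes between the combination and aPD-1, DESeq2 called 265 higher and 57 lower on 10 libraries and 360 higher and 64 lower on the 5 compared. The limma fit of log2(FPKM + 1) called 1 higher and 3 lower, and replicate 4 as the only combination library gave 2563 higher and 4808 lower. Leaving out 1 library gave 0 to 10 higher and 0 to 1 lower, the most without combination replicate 4. At an unadjusted p under 0.05 and a log2 fold change of at least 1 (1040 higher, 182 lower), DESeq2 on 10 libraries gave 1787 higher, limma 164 higher and 86 lower, and replicate 4 alone 3330 higher and 4518 lower. Leaving out 1 library gave 483 to 2079 higher and 98 to 722 lower, with 2079 and 722 without combination replicate 3, 483 and 121 without aPD-1 replicate 3, and 568 and 98 without aPD-1 replicate 4. The replicate block gave 430 higher and 90 lower, and 0 called at an adjusted p. Same-numbered libraries correlated in their deviations from the group means at 0.209 and 0.172. Combination replicates 3 and 4 correlated with the other aPD-1 library at -0.209 and -0.172. With 2 aPD-1 libraries these deviations mirror each other, so that the correlations cannot decide whether the numbers pair the samples. The main fit takes the samples as unpaired. Higher genes were 85.1% of the genes at that p and fold change, 65.6% with limma on log2(FPKM + 1) and 42.4% with replicate 4 alone. The interaction had 126 positive and 58 negative calls with DESeq2, 1450 and 3728 with replicate 4 alone, and 0 to 6 and 0 to 1 when 1 library was left out. YH29407 against control had 0 to 29 higher and 0 to 46 lower when 1 library was left out, both most without YH29407 replicate 3. The fits on 5 libraries give no interaction.

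Of 114 named genes, 103 kept their sign in every alternative run. Many had been chosen by their small p in the same counts, and the leading genes also by libraries that did not overlap. Leaving out a library can hardly turn the sign of such genes, so that this count is a description and no separate support. With replicate 4 alone the sign turned for Cd4 (-0.85), Cyp1b1 (-0.88), Icam1 (-0.27), Lck (-0.38), Nfatc2 (-0.034), Pdcd1 (-0.064), Tox (-0.32) and the log2 fold change of B2m (-0.043), and with the block for B2m (-0.050). With 1 library left out the log2 fold change was -0.0086 to 0.15 for B2m, -0.88 to 0.026 for Cd274, -0.15 to 0.86 for Cyp1b1, -3.23 to 0.23 for Hbb-bt and -0.022 to 1.11 for Ido1. Of 532 recomputed list medians, 469 stayed within 1 SD of the main median and 63 moved by more. That SD is the spread of the list's mean log2 CPM over the 3 combination libraries, which replicate 4 widens in many lists. A median could turn its sign within it, as that of the interferon gamma list did with the block, from 0.40 to -0.41. The count of 469 is thus no measure of stable direction. The causes were not tested.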

Other observations

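These genes were chosen after their values were seen. Of the circadian clock genes, Per1 had 54.5, 45.9 and 82.1 CPM in combination replicates 2, 3 and 4, against 99.7 and 162 CPM in aPD-1 replicates 3 and 4 (log2 fold change -1.11), and 54.8, 79.4 and 54.6 CPM with YH29407 alone, against 41.4 and 41.1 CPM in the control group. Per2 had 7.47, 6.80 and 14.2 CPM in the combination group, against 23.1 and 25.9 CPM with aPD-1 alone (log2 fold change -1.37), and Cry1 had 17.1, 22.6 and 32.4 CPM, against 60.5 and 51.4 CPM (log2 fold change -1.22). Per3 had 12.7, 13.4 and 13.7 CPM, against 15.6 and 21.2 CPM (log2 fold change -0.47, SE 0.33), and Cry2 overlapped, with 15.1, 14.2 and 28.4 CPM in the combination group, against 25.7 and 25.3 CPM with aPD-1 alone. Their activators Arntl and Clock overlapped as well, with log2 fold changes of -0.03 and -0.54. So did Nr1d1, Dbp, Tef, Hlf, Bhlhe40, Bhlhe41 and Ciart, with log2 fold changes from -0.82 to 0.66. Nr1d2 was lower in every combination library (log2 fold change -0.80). The hour of collection is not given in the sources used here.

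Tfrc, the transferrin receptor that takes up iron, had 96.3, 153 and 87.3 CPM in the combination group, against 326 and 337 CPM with aPD-1 alone (log2 fold change -1.56). Slc40a1, the iron exporter ferroportin, had 8.22, 15.5 and 0.629 CPM in the combination group, against 0.393 and 0.206 CPM with aPD-1 alone, with replicate 4 far below the other 2 combination libraries. Of further iron genes, Steap3 was lower in every combination library (log2 fold change -0.86). Slc11a2, Ftl1 and Fth1 overlapped between the groups, with log2 fold changes of 0.26, 0.95 and 0.39. Ccn2, a matrix protein induced by YAP like Ccn1, had 6.59, 8.84 and 3.88 CPM in the combination group, against 19.0 and 22.4 CPM with aPD-1 alone (log2 fold change -1.68).

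Ptprn, a protein of secretory granules, had 78.9, 50.2 and 77.6 CPM in the combination group, against 25.5 and 27.4 CPM with aPD-1 alone, and 18.2, 28.0 and 23.9 CPM with YH29407 alone, against 72.6 and 62.2 CPM in the control group (interaction 2.91). Gli1, a target of hedgehog signaling, had 20.6, 15.4 and 27.6 CPM in the combination group, against 6.80 and 8.46 CPM with aPD-1 alone, and 13.3, 12.1 and 11.5 CPM with YH29407 alone, against 18.3 and 20.6 CPM in the control group (interaction 2.13).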
